A study of Mus musculus with 7 samples.

Results

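The 6 genes described here are regulators and receptors of the delta cell, the somatostatin-secreting cell of the pancreatic islet. They are the transcription factor gene Hhex, the retinol carrier gene Rbp4 and the receptor genes Ghsr, Lepr, Casr and Sstr3. They were chosen by symbol, and each had 1 probe set annotated to that gene alone, so 6 of the 22180 genes tested are covered. The comparison was between 3 arrays of control islets (Gata6 flox/flox) and 4 arrays labelled Gata6 KO (Gata6 flox/flox;Pdx1-Cre). Both groups carry floxed Gata6 alleles, and only the second carries Cre, under the Pdx1 promoter, so the Cre transgene and the loss of Gata6 cannot be told apart in this design. Pdx1-Cre acts in the pancreatic epithelium, from which endocrine, acinar and ductal cells all derive. Each array held collagenase-isolated islets pooled from 3 mice aged 2 months, and values are log2 signals per probe set.

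Delta cells are scattered among the beta and alpha cells of the islet and restrain them by releasing somatostatin, the product of Sst. Hhex is a homeodomain repressor needed for delta cells to form and to keep their identity. Ghsr binds ghrelin and Casr senses extracellular calcium, and both couple to G proteins that raise intracellular calcium. Sstr3 is an inhibitory receptor for somatostatin itself, and Lepr is the cytokine-type receptor of leptin. Several of these genes are not exclusive to delta cells: Hhex is also known from ductal cells, Sstr3 from beta cells, Lepr from stromal and vascular cells and Rbp4 from liver and fat.

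Of the 6 genes, Casr, Sstr3 and Rbp4 fell on the arrays labelled Gata6 KO, Lepr rose, and Hhex and Ghsr did not pass the test. Relative to all genes the measured log2 changes were -2.67 for Casr, -2.54 for Sstr3 and -1.23 for Rbp4, beside -2.38 for Sst. On some arrays labelled Gata6 KO the Casr and Sstr3 signals lay near the median of all probe sets, where changes are compressed, so their sizes cannot be compared closely with that of Sst. Over all genes tested 24.7% were called by the same rule, 7.36% lower and 17.4% higher, so 3 lower of 6 lies above the background share and 1 higher of 6 lies close to it. The 6 genes were chosen with earlier results of these data known, so this comparison is descriptive only. With each array centred on its median the background turned to 12.8% lower and 7.85% higher, and 4 of the 6 genes were called lower, Ghsr being added, and 0 higher.

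The promoters of the genes that fell, and that of Hhex as the regulator that was not called, are shown because the study targets a GATA factor. Each is the 250 bases before an annotated start site from RefSeq (GRCm38.p6), written 5′ to 3′ on the gene's strand. Capitals mark a GATA word, that is the word AGATAA, the word AGATAG, the word TGATAA or the word TGATAG, on either strand.
Casr, chr16:36562135-36562384, minus strand: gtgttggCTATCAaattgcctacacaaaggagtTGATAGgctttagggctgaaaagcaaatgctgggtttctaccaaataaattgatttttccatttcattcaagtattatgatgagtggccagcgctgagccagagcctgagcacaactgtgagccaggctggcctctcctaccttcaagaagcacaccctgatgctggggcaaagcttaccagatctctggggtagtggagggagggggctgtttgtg
Sstr3, first start, chr15:78544346-78544595, minus strand: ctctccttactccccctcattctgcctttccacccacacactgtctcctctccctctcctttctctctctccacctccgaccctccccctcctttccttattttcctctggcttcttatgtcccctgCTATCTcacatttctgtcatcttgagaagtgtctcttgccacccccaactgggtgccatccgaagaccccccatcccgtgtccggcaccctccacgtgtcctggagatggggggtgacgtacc
Sstr3, second start, chr15:78541407-78541656, minus strand: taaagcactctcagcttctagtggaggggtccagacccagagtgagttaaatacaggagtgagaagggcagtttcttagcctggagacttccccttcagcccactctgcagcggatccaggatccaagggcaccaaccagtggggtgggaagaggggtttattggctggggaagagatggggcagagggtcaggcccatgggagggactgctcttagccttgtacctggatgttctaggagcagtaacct
Rbp4, first start, chr19:38125322-38125571, minus strand: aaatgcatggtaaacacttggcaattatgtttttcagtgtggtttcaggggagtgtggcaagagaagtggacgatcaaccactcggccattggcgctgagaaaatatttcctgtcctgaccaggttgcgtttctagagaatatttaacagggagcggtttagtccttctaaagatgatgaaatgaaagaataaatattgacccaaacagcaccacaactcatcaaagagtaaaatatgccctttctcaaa
Rbp4, second start, chr19:38124812-38125061, minus strand: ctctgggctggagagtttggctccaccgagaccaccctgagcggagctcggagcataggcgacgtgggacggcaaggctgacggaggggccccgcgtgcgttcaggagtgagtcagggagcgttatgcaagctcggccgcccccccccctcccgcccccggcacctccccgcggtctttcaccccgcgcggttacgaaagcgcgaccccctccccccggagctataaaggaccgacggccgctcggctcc
Hhex, chr19:37434591-37434840, plus strand: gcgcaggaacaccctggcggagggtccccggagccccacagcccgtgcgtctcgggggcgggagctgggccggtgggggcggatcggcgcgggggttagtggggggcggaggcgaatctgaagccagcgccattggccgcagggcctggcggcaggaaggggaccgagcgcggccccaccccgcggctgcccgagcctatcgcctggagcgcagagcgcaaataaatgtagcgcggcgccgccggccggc

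All 6 genes had entries in the promoter table. The Casr window held 2 GATA words, starting 243 and 217 bases before the start site, and the first Sstr3 window held 1, starting 123 bases before it. None of these words was in the second Sstr3 window, in either window of Rbp4 or Lepr, or in those of Hhex, Ghsr and Sst. At least 1 GATA word was present in 26.5% of all 32851 windows of that length. The homeodomain word TAATTA was in none of these windows, and in 4.84% of all. The windows differed in base composition, with 76.0% G and C for Hhex, 48.8% for Casr, and 70.8% and 40.8% for the second and first starts of Rbp4. These matches describe the letters of the windows, and no binding was measured.

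The arrays differed beyond these genes. Medians over all probe sets were 1.72 to 1.78 in the controls and 1.89 to 2.11 with the label Gata6 KO, and over all genes the log2 difference had a median of 0.17. Changes are therefore given as log2 differences minus this shift, and SEs and p are those of the unshifted difference. The Gata6 signal did not fall with the label Gata6 KO (4.74 ± 0.12, SD, n = 3, against 5.28 ± 0.18, SD, n = 4; limma adjusted p = 0.0622). Where the probes lie relative to the floxed part is not stated in the labels, so this may check nothing, and directions below are those of the labels. Xist, which is expressed in females, was low on control array 3 and Gata6 KO array 3 (1.34 and 2.15) and between 5.02 and 5.60 on the other 5 arrays. In pooled islets, fewer cells of a type, a larger share of RNA from other cells such as acinar cells, and less RNA per cell cannot be told apart. Sst, the defining delta-cell gene, measured 12.38, 12.21 and 12.01 on the control arrays, against 10.29, 10.15, 8.72 and 10.77 on the arrays labelled Gata6 KO 1 to 4.

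Markers of other cells moved with these results. Summed signals (log2 of the sum of linear signals) of 8 beta-cell markers were 12.18 to 12.68 in the controls, against 9.07 to 10.86 with the label Gata6 KO, and all 8 fell. All 4 measured alpha-cell markers fell as well (12.29 to 12.64 against 8.59 to 10.98), as did 2 of 3 of PP and epsilon cells (11.89 to 12.37 against 6.14 to 9.45), of which Ppy changed by -4.73. Of 10 acinar markers 6 rose and 0 fell (15.38 to 15.42 against 15.71 to 15.83), although the most abundant, Ctrb1 and Cela1, were near the top of the scale and did not pass. Of 7 ductal markers 2 rose and 1 fell (7.84 to 8.72 against 8.80 to 9.60), with Muc1 rising by 1.06. Of 9 mesenchymal markers 6 rose and 0 fell (7.22 to 8.02 against 7.03 to 9.33), and of 8 endothelial markers 4 fell and 0 rose (8.37 to 8.86 against 6.96 to 8.17). The falls of Casr, Sstr3 and Rbp4 go the way of the endocrine markers. The rise of Lepr goes the way of the 6 mesenchymal and 6 acinar markers that were called, and against the 4 endothelial markers called. Markers not called did not all share these directions. Rgs5, the mesenchymal marker of highest mean, changed by -1.16, and the endothelial marker Pecam1 by 0.36. The ductal markers, among which Krt7 fell by 0.99, share no direction to set beside Hhex. The part of these cell types in the members' values was not tested. Of 6 hepatocyte markers only Tat passed, towards lower values (-2.77), while Alb was high on control array 1 (7.18) and on the array labelled Gata6 KO 4 (8.14) and lay between 2.15 and 3.32 on the other 5. Rbp4 was highest on the first of these arrays and within its group's range on the second (4.54). Of 6 adipocyte markers 2 rose, of 6 macrophage markers 1, of 5 lymphocyte markers 2 and of 5 glial and neuronal markers 0. None of the 5 red blood cell markers was matched to a probe set of 1 gene symbol, so none was measured.

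**Figure D1:**
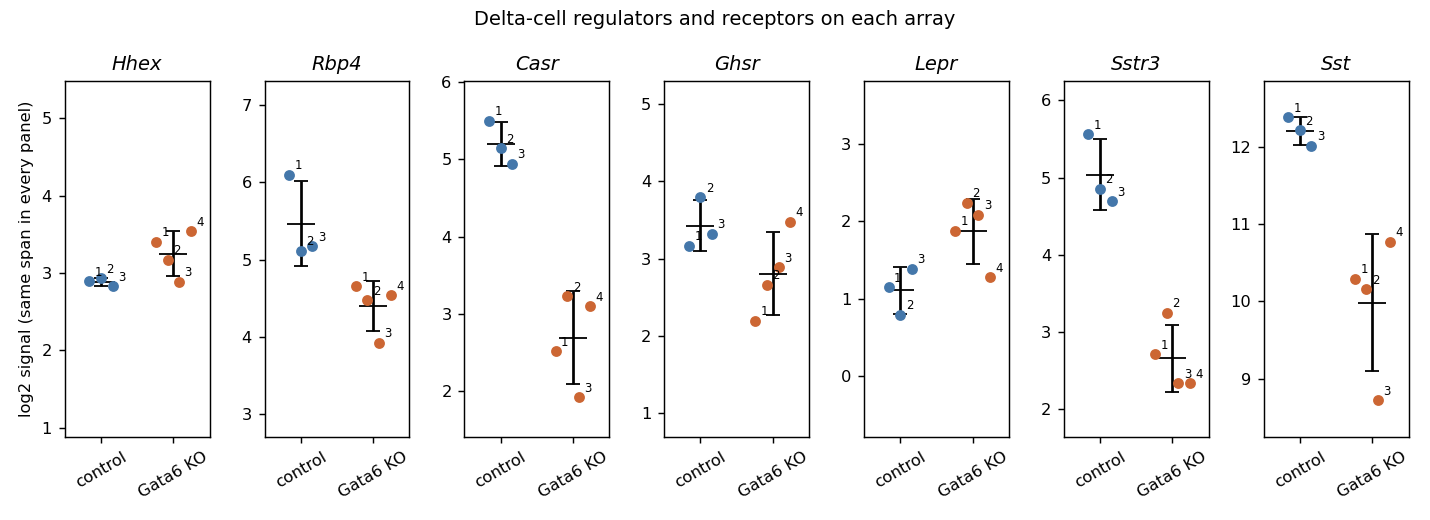
Log2 signal (vertical axis) of the 6 genes and Sst on the 3 control arrays (blue) and 4 arrays labelled Gata6 KO (orange), with the array number beside each point and bars for mean and SD; every panel spans the same number of log2 units. Casr, Sstr3, Rbp4 and Sst have no overlap between the groups, whereas Hhex, Ghsr and Lepr do.

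Hhex, the lineage repressor of the delta cell (probe set 17359045), measured 2.89, 2.93 and 2.83 on the control arrays. On the arrays labelled Gata6 KO 1 to 4 it measured 3.40, 3.17, 2.89 and 3.54. Array 3 lay within the control range and the other 3 above it, so the groups overlapped. The change was 0.20 with an SE of 0.22 and an unadjusted 95% interval from -0.26 to 0.67, which did not pass (limma adjusted p = 0.236; exact two-sided permutation p = 0.114, smallest possible 0.0286). A fall of the size seen for Sst, -2.38, lies outside that interval. However, the control values lay not far above the control array medians (1.72 to 1.78). Changes are compressed there, so a fall of that size could hardly have been measured for Hhex. The control arrays were close together for Hhex (SD 0.054), and the arrays labelled Gata6 KO spread 5.33 times as widely.

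Rbp4, which encodes the plasma carrier of retinol and is enriched in mouse delta cells (probe set 17364341), measured 6.10, 5.12 and 5.18 on the control arrays. It measured 4.66, 4.48, 3.93 and 4.54 on the others. All 4 lay below the lowest control array, and control array 1 stood above the other controls. Non-overlap towards lower values was seen for 9.96% of all genes. The change was -1.23 (SE 0.27, limma adjusted p = 0.0107; exact permutation p = 0.0286, the smallest possible). Without control array 1 the unshifted difference went from -1.06 to -0.75 and the call was lost (limma adjusted p = 0.0739, in a range from 0.00201 to 0.0739 over all alternatives).

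Among the receptors, Casr, the calcium-sensing receptor (probe set 17330188), measured 5.50, 5.14 and 4.95 on the control arrays, against 2.52, 3.23, 1.93 and 3.10 on the arrays labelled Gata6 KO. The groups were far apart, with 1.71 log2 units between the lowest control and the highest array of the other group. The change was -2.67 (SE 0.29, limma adjusted p = 5.18e-05; exact permutation p = 0.0286, the smallest possible). Only 0.437% of genes had a lower difference. Sstr3, the inhibitory somatostatin receptor (probe set 17319029), measured 5.56, 4.85 and 4.69 on the control arrays. It measured 2.71, 3.25, 2.33 and 2.34 on the others, again with no overlap. Its change was -2.54 (SE 0.28, limma adjusted p = 4.79e-05; exact permutation p = 0.0286, the smallest possible). Both calls held under each of the 19 alternatives, with unshifted differences from -2.75 to -2.25 for Casr and from -2.62 to -2.11 for Sstr3. 

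Ghsr, the ghrelin receptor through which ghrelin drives somatostatin release (probe set 17396395), measured 3.17, 3.80 and 3.32 on the control arrays, against 2.20, 2.66, 2.89 and 3.48 on those labelled Gata6 KO. Arrays 1 to 3 of the second group lay below all controls, and array 4 lay above 2 of them. The change was -0.79 (SE 0.28) and did not pass (limma adjusted p = 0.127; exact permutation p = 0.143). The Ghsr call depended on the setting. It passed without the array labelled Gata6 KO 4 (unshifted -0.85, limma adjusted p = 0.0261), after centring each array on its median (limma adjusted p = 0.0315) and after a repeated quantile normalization (limma adjusted p = 0.0338), within a range from 0.0172 to 0.389.

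Lepr, the leptin receptor (probe set 17415979), was the only one of the 6 genes called higher. It measured 1.15, 0.79 and 1.39 on the control arrays, against 1.88, 2.24, 2.09 and 1.28 on those labelled Gata6 KO. Array 4 lay below control array 3, so the groups overlapped. All control values lay below the median of all probe sets, so the signal was near the background of these arrays. The change was 0.60 (SE 0.24, limma adjusted p = 0.0326; exact permutation p = 0.0857). The call was lost in 10 of 18 alternatives, both scaling alternatives and 5 of the 7 fits without 1 array among them, within an adjusted p range from 0.00512 to 0.160. Those 5 arrays were control arrays 1 and 2 and the arrays labelled Gata6 KO 1, 2 and 3.

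**Figure D2:**
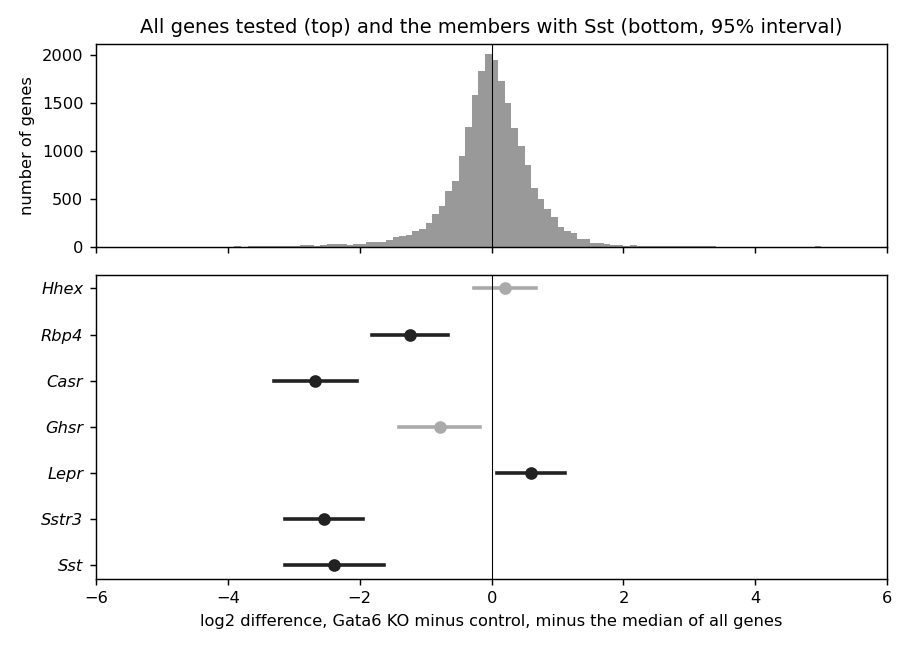
Log2 difference (horizontal axis, Gata6 KO minus control, minus the median of all genes) for all 22180 genes as a histogram and for the 6 genes and Sst as points with unadjusted 95% intervals; black marks a limma adjusted p under 0.05 and grey the rest. Casr, Sstr3 and Sst lie between -2.67 and -2.38, in the left tail of all genes, and Rbp4 at -1.23.

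The members also differed in how they moved relative to Sst. When the Sst signal of the same array was subtracted, Casr changed by -0.29 (SE 0.58, 95% interval -1.42 to 0.85; exact permutation p = 0.400) and Sstr3 by -0.16 (SE 0.58, interval -1.30 to 0.98; exact permutation p = 0.800). These intervals are wide, so the values do not show that either gene changed as much as Sst. Hhex changed by 2.59 relative to Sst (SE 0.60), and every array labelled Gata6 KO lay above every control array (exact permutation p = 0.0286, the smallest possible). Lepr, Ghsr and Rbp4 changed by 2.98 (SE 0.64), 1.60 (SE 0.60) and 1.15 (SE 0.55). For these 3 genes too the groups did not overlap, with an exact permutation p of 0.0571 each. Of all genes, 96.4% were called higher and 0.0992% lower relative to Sst. This sets Hhex, Lepr, Ghsr and Rbp4 apart from Sst in measured signal, and not from other genes. Hhex, Lepr and Ghsr had control means of 2.88, 1.11 and 3.43, from which a fall as large as that of Sst could hardly be measured. In limma the adjusted p were 5.63e-05 for Hhex, 1.48e-05 for Lepr, 0.00876 for Ghsr and 0.0388 for Rbp4. They are too small, because every gene shares the same Sst values and the fit counts their spread as well known. The Rbp4 call was lost without any 1 of 5 arrays (control arrays 1, 2 and 3 and the arrays labelled Gata6 KO 1 and 2), and that of Ghsr without control array 1 (limma adjusted p = 0.0773).

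**Figure D3:**
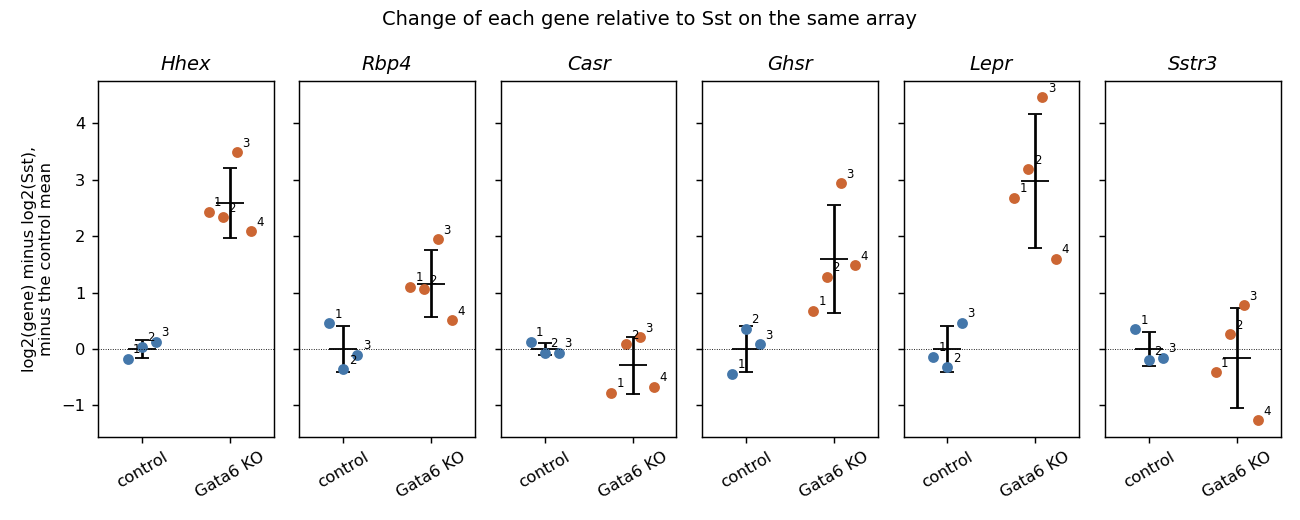
Log2 signal of each gene minus that of Sst on the same array, set to 0 at the control mean (vertical axis), for control arrays (blue) and arrays labelled Gata6 KO (orange), with array numbers, means and SD bars. Casr and Sstr3 straddle 0, whereas Hhex, Lepr, Ghsr and Rbp4 lie above their controls on all 4 arrays.

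The array labelled Gata6 KO 3 gave the lowest value of its group for Sst, Hhex, Rbp4, Casr and Sstr3. It did not for Ghsr, lowest on array 1, or Lepr, lowest on array 4. For Sstr3, array 4 was almost as low (2.34 against 2.33), although it was the highest of its group for Sst (10.77). Without array 3 the unshifted difference of Casr was -2.25 in place of -2.50, and that of Sst -1.80 in place of -2.22. As a measure of how alike patterns are, root mean square distances over the 7 arrays were taken after subtracting each gene's own mean. Casr lay 0.36 log2 units from Sst and 0.35 from Sstr3, and Sstr3 lay 0.61 from Sst. Rbp4, Ghsr, Hhex and Lepr lay 0.73, 1.03, 1.34 and 1.68 from Sst. Genes other than Sst lay nearer to Casr and to Sstr3, as given below, and the beta-cell marker Nkx6-1 changed by -2.58. The distances therefore do not show a pattern particular to delta cells. All distances share the same arrays and their normalization.

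By the same measure the nearest genes were sought among those tested, with unnamed gene models (Gm and Rik symbols) and microRNAs left out. The nearest to Casr were Spock2, a matrix proteoglycan gene (0.16), the receptor tyrosine kinase gene Ret (0.16) and Epb41l3, a membrane skeleton gene (0.20). Their changes were -2.88, -2.69 and -2.78. Nearest to Sstr3 were Prkar1b, a regulatory subunit of protein kinase A (0.14), the purinergic receptor gene P2ry1 (0.20) and the neurofilament gene Ina (0.20), with changes of -2.53, -2.58 and -2.77. The genes nearest to Rbp4 were Cds1, Madd and Filip1 (0.12, 0.13 and 0.14). They shared its high value on control array 1, with 3.64, 5.09 and 3.75 against 3.04, 4.36 and 2.46 on control array 2. Because these genes were picked for a like pattern over the same arrays, this likeness follows from the choice. Nearest to Lepr were the keratin gene Krt17, Arhgef38 and Tuba1c (0.09, 0.11 and 0.12), with control means of 0.91, 1.58 and 2.19.

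Genes around each member were taken from lists chosen by known roles. Over all genes tested 7.36% were called lower and 17.4% higher, and each list count below is to be set beside these shares. No list was tested as a set, so the counts are descriptive, and small counts in a short list are no result about that list. Of 8 measured delta-cell genes other than the members, 3 fell and 0 rose, with a median of -0.59 relative to all genes. Those 3 were Sst and the transcription factor genes Isl1 (-2.06, SE 0.24, limma adjusted p = 1.06e-04) and Pdx1 (-1.65, SE 0.22), both of which beta cells also express. The fatty acid receptor gene Ffar4, the gastrin receptor gene Cckbr, Crhr2, Fxyd6 and the muscarinic receptor gene Chrm4 did not pass. Their unshifted differences ran from -0.48 for Chrm4 to 0.04 for Fxyd6, although Chrm4 and Crhr2 passed towards lower values after centring (limma adjusted p = 0.0189 and 0.0353). Control means of Cckbr, Crhr2 and Chrm4 were 2.25, 2.10 and 2.16, close to background, and that of Ffar4 was 2.76. A large fall could hardly have been measured for them, whereas Fxyd6 had a control mean of 6.66.

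Somatostatin has 5 receptors, each with a probe set here. Besides Sstr3, Sstr2 passed in the opposite direction. It measured 3.06, 2.90 and 3.34 on the control arrays, against 3.43, 3.88, 3.80 and 4.43 on those labelled Gata6 KO, with no overlap. Its change was 0.62 (SE 0.25, limma adjusted p = 0.0333), a call lost after centring (limma adjusted p = 0.124) and without control array 1 or 2 or the array labelled Gata6 KO 2 or 4, where the adjusted p reached 0.134. Sstr1, Sstr4 and Sstr5 did not pass (limma adjusted p = 0.344, 0.213 and 0.145). Their group means, from 1.54 to 2.14, lay near the array medians of 1.72 to 2.11, so these signals were close to background. They therefore give no contrast with Sstr3. Cort, which encodes the related peptide cortistatin, did not pass either (-0.65, SE 0.22, limma adjusted p = 0.123). Its control mean of 2.06 was close to background. Cort did pass after centring (limma adjusted p = 0.0221) and without the array labelled Gata6 KO 4.

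Somatostatin receptors signal through inhibitory G proteins and GIRK potassium channels. Of 9 such genes, 4 fell and 2 rose (median -0.83). Gnao1, the Go alpha subunit, measured 7.04, 6.80 and 6.23 on the control arrays, against 3.73, 4.23, 2.96 and 3.57 on those labelled Gata6 KO, a change of -3.24 (SE 0.29, limma adjusted p = 9.03e-06). Gnaz and Gnai2, further inhibitory alpha subunits, changed by -1.84 (SE 0.21) and -1.56 (SE 0.26). Gnai1 rose by 1.30 (SE 0.26, limma adjusted p = 0.00119). The channel gene Kcnj6 fell (-1.05, SE 0.24, limma adjusted p = 0.0173), a call lost without control array 1 or 3 (highest adjusted p 0.0896). Its mean of 1.41 with the label Gata6 KO lay below the array medians, close to background. Gnai3 rose by 0.52 (SE 0.21), a call lost after centring (limma adjusted p = 0.203) and without control array 2 or 3 or the array labelled Gata6 KO 1 or 2 (highest adjusted p 0.113).

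On the ghrelin side, 3 of the 10 other measured genes fell and 0 rose (median -0.40). Gna11 and Gnaq, the alpha subunits that couple Ghsr and Casr to phospholipase C, changed by -1.15 (SE 0.22, limma adjusted p = 0.00521) and -0.84 (SE 0.23, limma adjusted p = 0.0421). The Gnaq call was lost without any 1 of 5 arrays, control arrays 1, 2 and 3 and the arrays labelled Gata6 KO 2 and 3 (highest adjusted p 0.210). Mrap2, an accessory protein of Ghsr, changed by -0.93 (SE 0.18, limma adjusted p = 0.00796). Its means of 1.88 in the controls and 1.12 with the label Gata6 KO lay near or below the array medians, so it was close to background. The ghrelin gene Ghrl and its acylating enzyme gene Mboat4 did not pass (limma adjusted p = 0.300 and 0.346). Their control means of 1.91 and 2.26 were close to background.

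Of the 10 other measured genes of leptin receptor signalling, 1 rose and 1 fell (median -0.25). Socs3, the feedback inhibitor that leptin and other cytokines induce, measured 4.60, 5.08 and 4.98 on the control arrays, against 3.48, 3.61, 3.92 and 3.86 on those labelled Gata6 KO. Its change was -1.33 (SE 0.21, limma adjusted p = 0.00148). Jak2, the kinase bound to Lepr, changed by 0.47 (SE 0.21, limma adjusted p = 0.0436), a call lost after centring (limma adjusted p = 0.224) and without any 1 array other than Gata6 KO 3. Stat3 and Ptpn11 did not pass (limma adjusted p = 0.103 and 0.0874), but after centring both passed towards lower values (limma adjusted p = 0.0419 and 0.0351). Ptpn1 did not pass, nor did Leprot, the neighbouring gene that shares 5′ exons with Lepr in some annotations (limma adjusted p = 0.223).

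Of the 18 other measured genes of retinoid transport and response, 6 rose and 1 fell (median 0.34). The gene that fell was Ttr, the plasma partner of Rbp4 and an abundant alpha-cell transcript. It measured 10.87, 10.79 and 10.41 on the control arrays, against 8.42, 8.70, 7.98 and 8.94 on those labelled Gata6 KO (-2.35, SE 0.23, limma adjusted p = 1.98e-05). Aldh1a1, a retinoic acid synthesis enzyme, rose by 1.23 (SE 0.20, limma adjusted p = 2.84e-04), and Lrat, which esterifies retinol, by 0.81 (SE 0.24, limma adjusted p = 0.0102), a call lost without control array 1 or 3 (highest adjusted p 0.0659). Rbp2, Crabp2, Aldh1a2 and the retinol-binding protein receptor gene Stra6l also passed, but not after centring (limma adjusted p from 0.0624 to 0.204). Control means of Lrat, Rbp2 and Crabp2 were 1.23, 1.55 and 1.76, near or below the array medians and so close to background. Stra6, the other Rbp4 receptor gene, did not pass (limma adjusted p = 0.143), with a control mean of 1.41, close to background.

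Casr belongs to the class C receptors. Of 8 other measured class C receptors and partners, 2 rose and 1 fell (median -0.09). Gabbr2, a subunit of the GABA-B receptor, measured 5.52, 4.99 and 4.92 on the control arrays, against 2.53, 2.69, 2.51 and 2.80 on those labelled Gata6 KO. Its change of -2.68 (SE 0.22, limma adjusted p = 5.25e-06) was close in size to that of Casr. Its partner subunit Gabbr1 did not pass (-0.49, SE 0.20, limma adjusted p = 0.259), but passed after centring (limma adjusted p = 0.0444). Gabbr1 had a control mean of 2.23, close to background. Flna, a cytoskeletal scaffold of Casr, rose by 1.49 (SE 0.29, limma adjusted p = 0.00115). Tas1r2, a sweet taste receptor subunit with a control mean of 1.78, close to background, changed by 0.58 (SE 0.21, limma adjusted p = 0.0215). That call was lost after centring (limma adjusted p = 0.120) and without control array 2 or 3 or the array labelled Gata6 KO 3.

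Hhex acts with corepressors of the Tle family. Of 10 other measured genes of this family and of islet lineage factors, 4 fell and 0 rose (median -0.79). Tle3 changed by -1.21 (SE 0.23, limma adjusted p = 0.00496) and Tle2 by -0.96 (SE 0.20, limma adjusted p = 0.0120), the latter lost without control array 3 (limma adjusted p = 0.0537). Tle1, Tle4 and Tle5 did not pass. Nkx2-2, an endocrine lineage factor, changed by -2.15 (SE 0.24, limma adjusted p = 6.40e-05), and Insm1 by -1.04 (SE 0.28, limma adjusted p = 0.0367), the latter lost without any 1 of 5 arrays (highest adjusted p 0.177). Those were all 3 control arrays and the arrays labelled Gata6 KO 1 and 4. Pax4 and Neurog3, factors of endocrine progenitors, did not pass, with control means of 1.83 and 2.11, close to background.

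**Figure D4:**
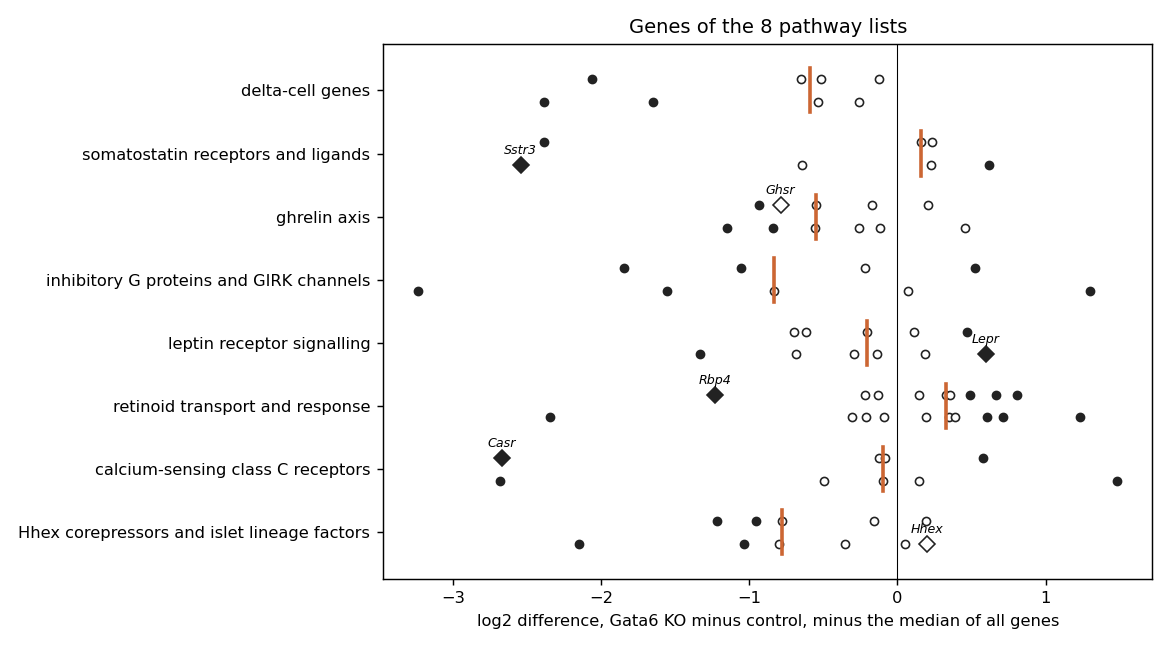
Log2 difference (horizontal axis, Gata6 KO minus control, minus the median of all genes) of each measured gene in the 8 lists; filled symbols passed limma at an adjusted p under 0.05, diamonds are the named members and orange lines the list medians. Casr lies beside 1 other class C gene at the low end, and Ttr lies below Rbp4. The somatostatin receptors other than Sstr3 lie to the right of 0, with Sstr1, Sstr4 and Sstr5 close to background.

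**Figure D5:**
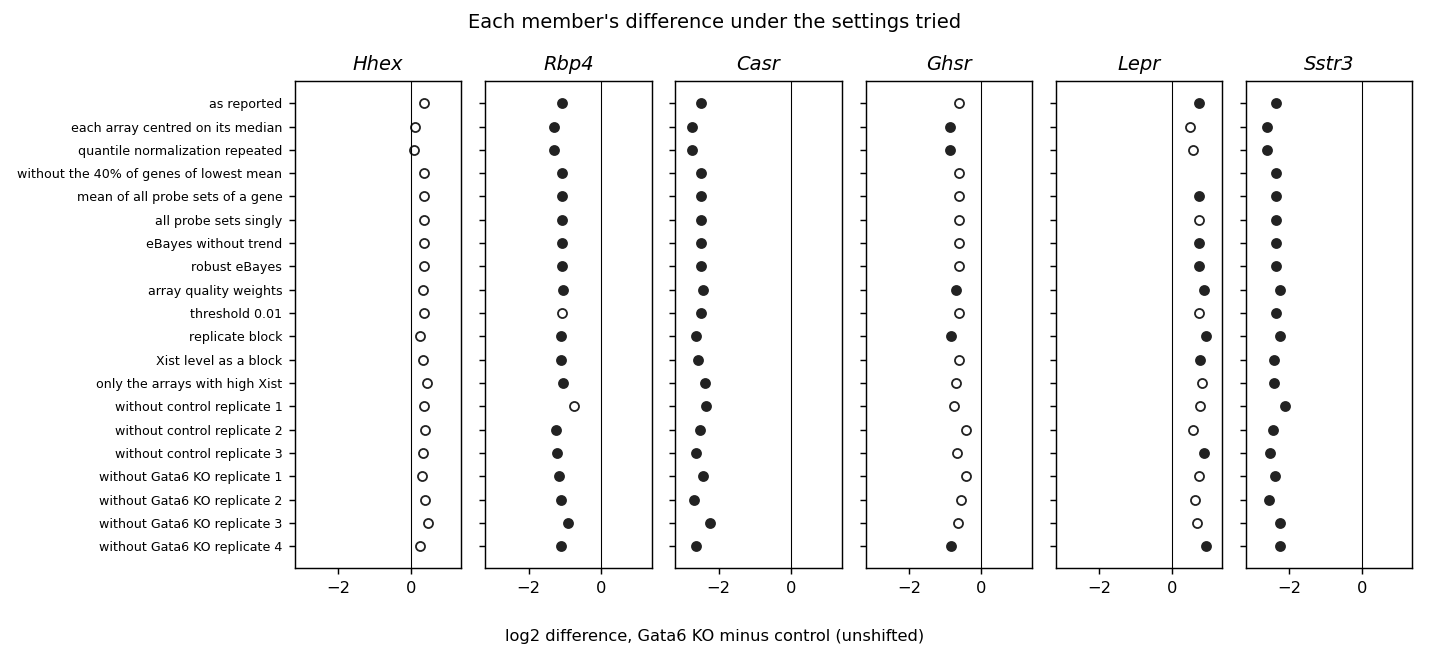
Unshifted log2 difference of each gene (horizontal axis, Gata6 KO minus control) under each setting tried (rows), with filled points where limma passed the threshold of that setting. Casr and Sstr3 are filled throughout, Hhex nowhere, and Rbp4, Ghsr and Lepr change side under some settings.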

How the data were processed

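Whole-transcript Affymetrix arrays were hybridised with labelled cDNA from total islet RNA, per the labels' protocols. The authors made the deposited log2 values with RMA, per the submitters' processing notes, which also name Transcriptome Analysis Console. Versions and the genome build are not given in the sources used here. Base 2 is taken from RMA. Values ran from -0.59 to 13.54.

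Gene names came from the platform annotation. Of 41345 probe sets 23521 had 1 gene symbol, 1814 several and 16010 none. For genes with several probe sets the one of highest mean was used, which left 22180 genes, 21994 with an identifier in the RefSeq gene table (GRCm38.p6), used for names only. The test was limma 3.58.1 under R 4.3.3 (lmFit, eBayes with trend, no covariate, two-sided, Benjamini-Hochberg over all genes, threshold 0.05). The code was tested on simulated data. Exact permutation tests used all 35 splits of the arrays. Detection calls and scanner files were not analysed here, so saturation and background were not tested, and the number of arrays limits the precision. Replicates are separate pools of mice.

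The members and lists were chosen with earlier results of these data known. Named are the 6 genes, Gata6, Sst, up to 3 further genes of smallest p per list, the 2 most abundant genes of each marker list and the 3 genes of most like pattern. Others are named where a count of 5 or fewer is spelled out or a known partner is described, and these were chosen after their values were seen. Alternatives covered scaling, filtering, probe set choice, the variance model, the threshold, a block and single arrays. Figures used matplotlib 3.10.9.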

Additional observations from a re-analysis of the deposited data

Results flagged for a closer look

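In 7 of the 67 named genes, 1 of the 4 arrays labelled Gata6 KO stood apart from the other 3 by Dixon's ratio of the gap to the range, against about 1 in 20 groups by chance. None of the 6 delta-cell genes was among them. Array 3 stood apart for Gcg (ratio 0.936), lower than the others, and for Filip1 (0.855), also lower. Array 4 stood apart for Gata6 (0.831), Rgs5 (0.839) and Fabp4 (0.834), each time lower. Array 1 was low for Tle2 (0.866), and array 2 was high for Ina (0.868).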

How the results depend on the processing

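Hhex kept its direction and did not pass under all 19 alternatives (0.10 to 0.49, adjusted p 0.123 to 0.783), and Casr, Sstr3 and Sst kept direction and call under all 19. Rbp4 kept its call in 17 of 19, and missed a threshold of 0.01 (-1.06, adjusted p 0.0107). Ghsr passed in 5 of 19: centring (-0.87), quantile normalization (-0.86), array quality weights (-0.71), 1 array left out and the replicate block (-0.85), which gives the same estimate because it leaves Gata6 KO array 4 without a partner. Lepr lost its call with centring (0.52), quantile normalization (0.59), all probe sets tested singly (0.76, the same value at the stricter threshold) and only arrays with high Xist (0.83). It lies among the 40% of genes with the lowest mean, so that filter gives it no value. Leaving out each array gave ranges of 0.27 to 0.49 for Hhex, -0.85 to -0.42 for Ghsr, -1.24 to -0.75 for Rbp4, 0.61 to 0.96 for Lepr, -2.68 to -2.25 for Casr and -2.57 to -2.11 for Sstr3.

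Relative to Sst those ranges were 2.29 to 2.75 (Hhex), 1.15 to 1.90 (Ghsr), 0.89 to 1.38 (Rbp4), 2.49 to 3.44 (Lepr), -0.45 to -0.12 (Casr) and -0.47 to 0.21 (Sstr3). Sstr3, not called, turned sign without control array 1 (0.015), without the array labelled Gata6 KO 4 (0.21) and with the replicate block (0.21). With the mean of Sst, Gcg, Ins2 and Ppy as reference, Casr (0.17) and Sstr3 (0.30) turned sign and Rbp4 missed the threshold (1.61, adjusted p 0.0507).

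Over all genes 3853 were higher and 1633 lower (70.2% of calls higher). Centring gave 1742 and 2831, quantile normalization 2018 and 2892, the threshold of 0.01 gave 1855 and 942, and arrays with high Xist gave 2231 higher. Without single arrays the counts ran from 2246 to 3812 and from 1019 to 1801. Over the 8 lists 13 genes were higher and 20 lower, against 4 to 12 and 16 to 22 without single arrays, an alternative chosen after seeing the data, and 4 higher and 29 lower after centring. Centring left 0 higher for somatostatin receptors and leptin signalling, 1 for inhibitory G proteins and for class C receptors and 2 for retinoid genes, and gave 5 lower for delta-cell genes and 3 for leptin signalling. The causes were not tested beyond the construction of each alternative. The replicate numbers share no litter or batch in the labels, and same-numbered arrays correlated at 0.098, 0.0043 and 0.115 over genes in their deviations, so the replicate block is given as an alternative only; control array 2 correlated best with another number.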
